A study of Mus musculus with 6 samples.

Results

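Long non-coding RNA (lncRNA) transcripts that overlap the most expressed genes of the mouse left ventricle are described here, each beside the gene it overlaps. They were chosen by level. A transcript had to have at least 60 counts summed over the 6 libraries, and its interval had to share a base, on either strand, with the locus of one of the 200 genes of highest mean FPKM (counts scaled to transcript length and library total). The rule found 141 transcripts among the 16160 at that count minimum, of 43234 in the table. They lie over 76 of the 200 genes, and 3 of them overlap 2 such genes. Each was assigned the gene with which it shares most bases, which left 74 genes. The remaining 71 of 212 transcripts over the 200 genes had fewer counts. The members nearest the minimum had 61, 61 and 66 counts and the transcripts just outside it 58, 56 and 55, while the 200th gene, Tmem38a, had a mean of 116.3 FPKM and the next, Sod1, 115.6.

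The study compared pressure overload of the heart with sham surgery in wild-type male C57BL/6 mice, an inbred strain, given as 8 weeks old. In transverse aortic constriction (TAC) a ligature narrows the aortic arch, and the sham operation leaves the ligature out. Total RNA of left ventricle tissue taken 6 weeks later was sequenced, giving 3 libraries labelled TAC and 3 labelled Sham. Whether the libraries come from different mice is not stated, and the tests take the spread between libraries as the error.

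A lncRNA is an RNA with no long open reading frame, and its gene can lie inside an intron of a protein-coding gene, run along its opposite strand or share its promoter. Introns are spliced out of the primary transcript of a gene and are short-lived, so reads inside an intron can come from an independent lncRNA or from the unspliced transcript of the host gene. Neither deposited table gives the strand of a transcript, so strand could not be used to tell these apart. Well-known lncRNAs of the heart include Malat1, a nuclear RNA of most tissues, and Mhrt, which is made from the myosin heavy chain locus opposite to Myh7.

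Promoter windows were available for genes whose start a member crosses or coincides with. RefSeq sequences (GRCm38.p6) of 300 bases, from 250 before to 50 after the annotated start, are shown for 6 of them, 5′ to 3′ on the strand of the gene, because these are the places where a member and a gene share or adjoin a start. Malat1 (chr19:5802623-5802922, minus strand) has 8 members over its window. The Mhrt window (chr14:54968537-54968836, plus strand) holds the first base of the member ENSMUST00000181782, which is also the RefSeq start. BC037032 (chr15:4027357-4027656, minus strand) and Oxct1 (chr15:4026178-4026477, plus strand) face each other with starts 978 bases apart, and the same 3 members reach both windows. Ogdh (chr11:6291347-6291646, plus strand) and Ryr2 (chr13:12106896-12107195, minus strand) each have 1 member across the start. Capitals mark matches on both strands to 3 short motifs of promoters. The first is TATAAA, the core of the TATA-binding element. The next, CCAAT, is bound by nuclear factor Y. The last, GGGCGG, is the GC-rich element bound by Sp factors.
Malat1: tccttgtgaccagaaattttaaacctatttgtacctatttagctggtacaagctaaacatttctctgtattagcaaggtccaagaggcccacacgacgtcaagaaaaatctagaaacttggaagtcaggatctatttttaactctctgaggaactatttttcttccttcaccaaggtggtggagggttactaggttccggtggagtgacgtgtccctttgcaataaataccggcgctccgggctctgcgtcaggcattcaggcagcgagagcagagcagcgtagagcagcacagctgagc
Mhrt: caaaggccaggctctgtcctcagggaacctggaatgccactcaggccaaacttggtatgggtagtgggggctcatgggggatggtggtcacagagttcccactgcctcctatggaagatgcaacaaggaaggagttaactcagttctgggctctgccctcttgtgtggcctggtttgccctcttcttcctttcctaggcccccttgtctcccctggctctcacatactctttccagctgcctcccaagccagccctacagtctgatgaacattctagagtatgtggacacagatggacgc
BC037032: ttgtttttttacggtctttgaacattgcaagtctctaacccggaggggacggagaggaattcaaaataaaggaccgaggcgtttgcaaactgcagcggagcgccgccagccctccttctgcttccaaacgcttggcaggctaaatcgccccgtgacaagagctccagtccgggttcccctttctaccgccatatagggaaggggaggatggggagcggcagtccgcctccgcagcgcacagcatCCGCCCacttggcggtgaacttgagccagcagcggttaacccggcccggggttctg
Oxct1: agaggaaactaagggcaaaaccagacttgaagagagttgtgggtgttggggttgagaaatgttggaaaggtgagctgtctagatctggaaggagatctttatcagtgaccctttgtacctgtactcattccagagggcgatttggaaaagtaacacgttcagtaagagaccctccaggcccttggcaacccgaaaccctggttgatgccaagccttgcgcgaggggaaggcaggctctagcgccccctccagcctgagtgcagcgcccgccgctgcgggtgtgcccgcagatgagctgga
Ogdh: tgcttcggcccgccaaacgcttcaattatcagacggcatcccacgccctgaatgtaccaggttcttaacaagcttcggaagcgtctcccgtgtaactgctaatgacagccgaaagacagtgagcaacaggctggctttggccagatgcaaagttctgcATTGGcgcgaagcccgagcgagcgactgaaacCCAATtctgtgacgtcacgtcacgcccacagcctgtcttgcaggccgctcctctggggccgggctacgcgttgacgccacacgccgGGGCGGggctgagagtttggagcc
Ryr2: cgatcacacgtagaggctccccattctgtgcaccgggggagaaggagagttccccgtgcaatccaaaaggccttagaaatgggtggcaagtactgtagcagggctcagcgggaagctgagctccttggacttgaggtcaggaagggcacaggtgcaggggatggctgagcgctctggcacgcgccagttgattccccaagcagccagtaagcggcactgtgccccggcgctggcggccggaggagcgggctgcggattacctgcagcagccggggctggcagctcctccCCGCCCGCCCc
Among all 32851 windows of this length, 13.6% held TATAAA, 37.4% CCAAT and 35.7% GGGCGG. None of the 6 windows held TATAAA. The motif CCAAT was found at 2 places in the Ogdh window, and GGGCGG at 1 place each in those of BC037032 and Ogdh and at 2 overlapping places in that of Ryr2. The Ogdh, BC037032 and Ryr2 windows held 25, 22 and 18 CG dinucleotides and the Mhrt window 1, where the median window held 7. A match is a description of the letters and not evidence of a bound factor.

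The libraries summed to 17399510 to 28401399 counts over genes and 1547100 to 2397057 over lncRNA transcripts, of which the members took 11.3% to 14.8%. Marker genes of stressed heart muscle went against the labels. Nppa, which encodes atrial natriuretic peptide, had a mean of 83.9 ± 17.0 CPM (counts scaled to library total; SD, n = 3) with the TAC label and 1087 ± 704 with the Sham label (edgeR adjusted p = 0.0222). Directions are therefore given throughout by library label. The 6 cardiomyocyte markers checked were all higher on average in the libraries labelled TAC, with summed levels of 43354 to 59562 CPM against 31002 to 42703. The 4 fibroblast markers were all lower, at 719.1 to 780.3 against 1273 to 1754 CPM, with Col1a2 past the test, and the 3 macrophage markers were lower too, at 44.2 to 70.8 against 73.8 to 86.1 CPM. The 3 atrial markers were uneven within labels. Their sums were 0.677, 8.14 and 43.9 CPM in TAC 1, 2 and 3 and 39.5, 1.94 and 46.1 in Sham 1, 2 and 3. Summed endothelial and blood markers overlapped between labels, at 707 to 778 against 601 to 734 CPM and 236 to 515 against 226 to 297 CPM. Skeletal muscle markers were near 0, with Myh4 at 0 in all 6 libraries. In bulk tissue, fewer cells of a type and less RNA per cell cannot be told apart, and the part of these markers in the results below was not tested.

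Most members were unspliced pieces inside a gene. 109 of 141 had an interval no longer than the transcript (77.3%), against 81.7% of the 12784 transcripts at the minimum that overlap other genes. Their median length was 2118 bases, with a range of 214 to 9494. 113 carry NONCODE identifiers, 27 Ensembl identifiers and 1 an identifier from transcript assembly. 49 of the 74 genes have 1 member, and Slc8a1, the sodium-calcium exchanger, has most with 13. No member lies over a mitochondrially encoded gene.

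Levels relative to the gene differed by position. The 94 unspliced members inside a gene had a median of 6.42 FPKM, and a median of 3.04% of the FPKM of their gene. The 9 spliced members inside a gene had a median of 3.06%, and the 18 that reach past the end of the gene 0.302%. The 20 that span a gene or bear its name ranged from 0.00813% to 98.0%. As the rule selects on level, these are descriptions with no test.

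**Figure D1:**
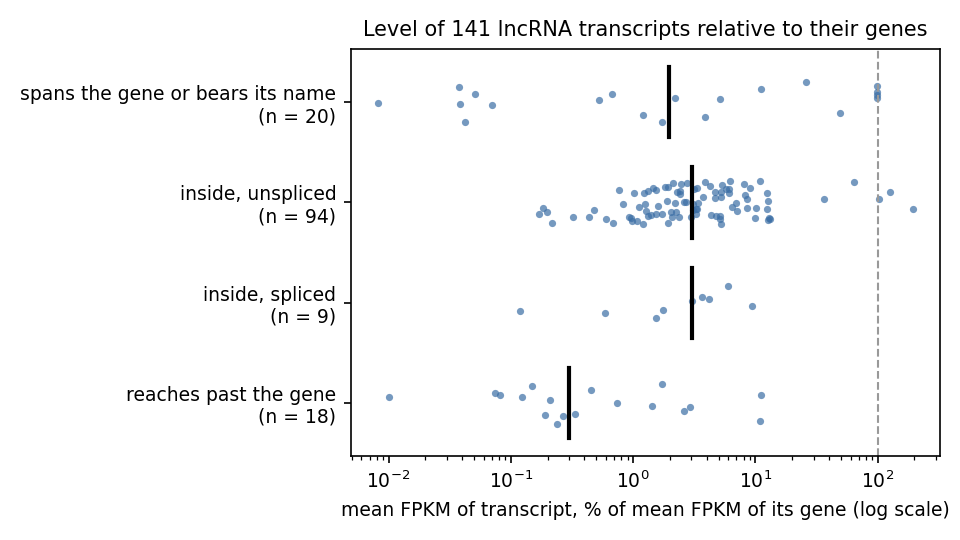
Mean FPKM of each of the 141 transcripts over 6 libraries as a percent of the mean FPKM of its gene (log scale), by position; points are transcripts, black bars medians, and the dashed line marks equality with the gene. Members reaching past the gene lie lowest, with a median of 0.302%, and a few unspliced members inside a gene reach or pass 100%.

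Among unspliced members inside a gene, the 4 with the highest levels ended at the 3′ end of the gene. Where RefSeq gives the strand (55 of 74 genes), 6 unspliced members inside a gene reached to within 50 bases of its 3′ end, and their median was 83.5% of the gene's FPKM, against 3.11% for the 69 that touch neither end. NONMMUT009091.2 over Sptbn1, a spectrin of the membrane skeleton, had 241 FPKM, or 195% of the gene. NONMMUT016357.2 over Ryr2, the calcium release channel of the sarcoplasmic reticulum, had 198 FPKM (64.5%). NONMMUT039400.2 over Ehd4, an endosomal trafficking ATPase, had 167 FPKM (126%), and NONMMUT020342.2 over Ldb3, a Z-disc protein, 135 FPKM (103%). The other two, over Xirp2 (3.40%) and Sod2 (9.09%), were high in some libraries only and are described below.

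The members at the 3′ ends of Ldb3, Ehd4 and Ryr2 kept a nearly fixed share of their gene's count. Whether their reads are also counted for the gene was not tested. If they are, the share sets a part against its whole, and neither its steadiness nor the ratio test is independent of the gene. NONMMUT020342.2 held 44.8, 45.3 and 46.0 counts per 100 counts of Ldb3 with the labels TAC 1, 2 and 3, against 47.4, 48.2 and 46.4 in Sham 1, 2 and 3. NONMMUT039400.2 held 43.1, 44.6 and 40.4 per 100 counts of Ehd4 in TAC and 43.2, 42.8 and 41.9 in Sham. For NONMMUT016357.2 the share of the Ryr2 count was 4.400, 4.49 and 4.10 in TAC and 4.43, 4.41 and 4.47 in Sham. The groups overlap for Ehd4 and Ryr2, and for Ldb3 the Sham libraries lie above the TAC libraries by little (log2 difference of the ratio −0.06, SE 0.05, limma adjusted p = 0.671).

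Some reads are counted in both tables. For the RNA component of the mitochondrial RNA processing ribonuclease, Rmrp, and for Gm13340, the transcript and the gene occupy the same interval and had equal counts in all 6 libraries. For Rpph1, the RNA component of ribonuclease P, they differed by at most 1 count, and for Gm42418, which RefSeq lists under the ribosomal RNA pseudogene Rn18s-rs5, by 7 to 18. Not every member with the interval of its gene had the gene's count. ENSMUST00000172812 on the Malat1 interval held 0.00736% to 0.0671% of the gene's count, and ENSMUST00000192833 on the Gm26917 interval 34.4% to 47.0%. Gene and lncRNA totals together exceed the library total implied by the lncRNA FPKM by 1211475 to 1933465 counts. A member and its gene are therefore not independent measurements where the same reads are counted for both. For Gm42418, Gm26917 and Gm13340, reads may also be shared with near-identical ribosomal or mitochondrial sequences, so their levels are uncertain.

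The non-coding genes supplied most of the members' counts. Gm26917 transcripts held 35.9% to 49.3% of them per library and Malat1 transcripts 7.32% to 27.2%. ENSMUST00000192833 over Gm26917 had 2918, 2252 and 1637 CPM in the TAC-labelled libraries and 2155, 2941 and 2880 in the Sham-labelled ones. NONMMUT029642.2, whose interval contains that transcript and the Gm42418 locus, had 1871 to 2614. Neither separates the groups, with log2 differences of −0.23 (SE 0.24) and −0.24 (SE 0.14). Rpph1 (ENSMUST00000175096) had 388, 387 and 373 CPM in TAC and 418, 531 and 430 in Sham, a difference of −0.26 on the log2 scale (SE 0.14, edgeR adjusted p = 0.499). Gm42418 (ENSMUST00000182010) had a difference of −0.57 (SE 0.20, adjusted p = 0.320), and Gm13340 (ENSMUST00000117219) of 0.04 (SE 0.14).

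Malat1 was split differently among its transcripts from library to library. 9 members lie over it, and their counts summed to 36360, 74584 and 20564 in TAC 1, 2 and 3 and to 18288, 24671 and 14522 in Sham 1, 2 and 3. In TAC 1, 83.9% of them were given to NONMMUT033604.2, and in TAC 2, 82.9% to NONMMUT033611.2. In the other 4 libraries 93.8% to 95.3% went to NONMMUT033610.2. The 3 transcripts differ at both ends. Taken on the strand of Malat1, NONMMUT033610.2 begins at the RefSeq start in the window printed above, NONMMUT033604.2 2 bases upstream and NONMMUT033611.2 100 bases upstream. In the same order their other ends lie at bases 5796074, 5795745 and 5796076 of chr19, and their lengths are 6457, 6638 and 6554 bases. The Malat1 gene itself varied less, with every TAC library above every Sham library, at 22483, 19699 and 21415 CPM in TAC and 16163, 17322 and 18312 in Sham (log2 difference 0.30, SE 0.15, edgeR adjusted p = 0.296).

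**Figure D2:**
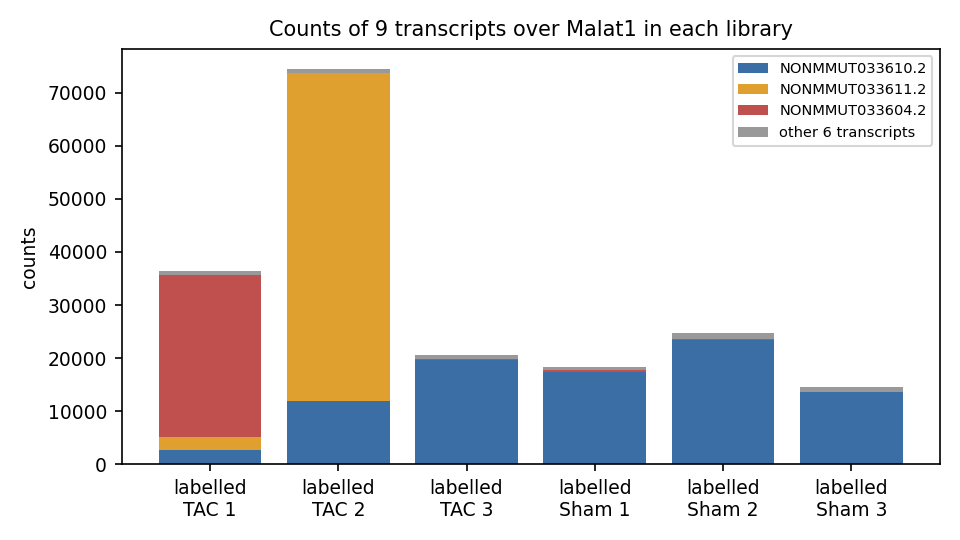
Counts of the 9 transcripts over Malat1 in each library, stacked, with the 3 of highest summed count in colour and the other 6 in grey. NONMMUT033610.2 holds nearly all counts in TAC 3 and the 3 Sham libraries, NONMMUT033604.2 most of them in TAC 1 and NONMMUT033611.2 most of them in TAC 2.

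Single Malat1 transcripts differed widely between libraries. NONMMUT033611.2 had 106, 2937 and 3.42 CPM in TAC and 5.76, 3.06 and 0.497 in Sham, so that 1 library carries its log2 difference of 8.35 (SE 2.48, edgeR adjusted p = 0.274). Without TAC 2 that difference was 4.13. NONMMUT033604.2 had 1374 CPM in TAC 1 and 0 to 11.5 in the others, and its difference of 6.18 (SE 2.82) became −0.65 without TAC 1. NONMMUT033610.2 had 124, 569 and 893 CPM in TAC and 875, 872 and 753 in Sham (−0.66, SE 0.60, adjusted p = 0.706).

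Other members were present in some libraries and nearly absent from the rest. NONMMUT028277.2, at the 3′ end of Sod2 (mitochondrial superoxide dismutase), had 4031 counts in TAC 1 and 5 in each of the other 5 libraries, while the Sod2 gene had 693, 665 and 531 CPM in TAC and 529, 398 and 472 in Sham. NONMMUT037669.2, at the 3′ end of Xirp2, had 418 and 374 counts in TAC 2 and TAC 3 and 1, 1, 3 and 1 in TAC 1 and the Sham libraries. NONMMUT038069.2 over Ttn, the titin gene, had 213 and 248 counts in the same 2 libraries and 1, 2, 1 and 1 elsewhere. These 3 are among the 5 members that did not pass the filter on low counts (a minimum count of 10). The edgeR test with that filter therefore has no value for them with all libraries. DESeq2, run without the filter, is given below.

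Along long genes the level of members changed with position. Members were compared with the gene locus and not with its exons, so which of them are intronic was not tested. The 13 unspliced members of Slc8a1 lay 20.9 to 255 kb from its 5′ end and had 2.98 to 30.8 FPKM, with a Pearson r of −0.90 and a Spearman rho of −0.77 between distance and log2 FPKM across the 13. The members share libraries and gene, so this describes the gene and has no p. Their summed counts came to 106, 98.8 and 184 per 100 counts of the Slc8a1 gene in TAC 1, 2 and 3 and 73.0, 92.5 and 112 in Sham 1, 2 and 3. Ryr2 and Sptbn1 had a different order, with the highest member at the 3′ end in both. Before that end, Sptbn1 members between 25.1 and 89.8 kb had 6.33 to 12.5 FPKM, and the one at 159 kb 44.8. The spliced Ryr2 member NONMMUT016362.2, at 54.9 kb, had 18.3 FPKM, above the 5.84 to 10.2 of the 4 unspliced ones between 220 and 311 kb. NONMMUT016363.2, which crosses the Ryr2 start shown above, had 0.250 FPKM.

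**Figure D3:**
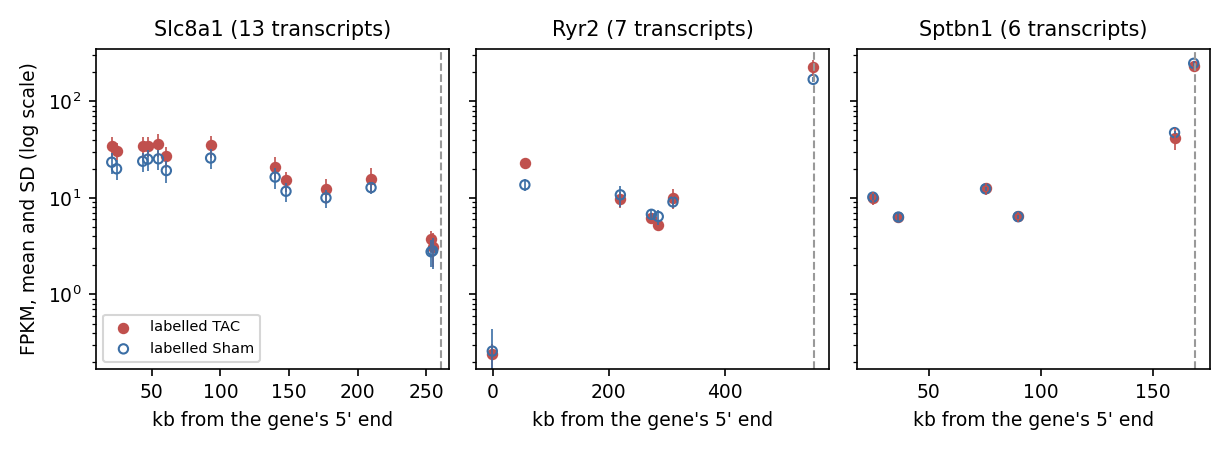
FPKM (log scale; mean and SD of 3 libraries; the lowest bar of Ryr2 runs past the axis) of each member against its distance from the 5′ end of Slc8a1, Ryr2 and Sptbn1, with filled points for libraries labelled TAC, open points for Sham and a dashed line at the 3′ end. Levels are highest in the first 100 kb of Slc8a1, and at the 3′ end of Ryr2 and Sptbn1.

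Between library labels, no member passed the test. Of 136 members tested, 0 were past an adjusted p of 0.05 in edgeR's quasi-likelihood test, where 0.106% of all 16035 transcripts tested were called (17), and the smallest adjusted p was 0.147. At an unadjusted p under 0.05 there were 35 members, or 25.7%, against 12.6% of all transcripts. 32 of the 35 were higher in the libraries labelled TAC (23.5% of members, against 6.7% of all transcripts), and 3 were higher in Sham (2.21%, against 5.85%). DESeq2 called 16 of the 138 members to which it gave an adjusted p (11.6%), against 1.3% of all 17934 such transcripts. All 16 were higher in TAC, as were 0.758% of all, and they lie over 10 genes, among them the 5 members of Atp2a2, 2 each of Fhl2 and Myh7, and the Malat1, Ttn and Xirp2 transcripts that 1 or 2 libraries carry. limma on log2 FPKM called 0.

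The direction of the members' differences was uneven. 90 of the 136 were higher on average in the libraries labelled TAC and 46 lower, with a median log2 difference of 0.27, where 50.4% of all transcripts tested were higher and the median was 0.00. In 33 members every TAC library lay above every Sham library (24.3%, against 10.3% of all transcripts), and in 8 the reverse held (5.88%, against 10.3%). Leaving out TAC 3 gave 83 positive members, the fewest of the left-out libraries, and leaving out TAC 2 gave 95, the most. TAC 3 was the highest of the 6 libraries in CPM for 48 members (35.3%, against 20.6% of all transcripts).

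The overlapped genes were compared in the gene table. Of the 74 genes, 2 were past the adjusted threshold, where 1.43% of all 15198 genes were called, and both were higher in Sham, as were 1.11% of all genes: Ankrd1, a stress-responsive ankyrin repeat protein of cardiac muscle (log2 difference −1.95, SE 0.36, edgeR adjusted p = 0.0492), and Xirp2, an actin-binding protein of the intercalated disc (−2.29, SE 0.37, adjusted p = 0.0396). Both calls were lost when any one library other than Sham 1 was left out, with adjusted p up to 0.129 and 0.118. At an unadjusted p under 0.05 there were 28 (37.8%, against 20.9% of all genes). Every TAC library lay above every Sham library in 23 genes (31.1%, against 13.4%) and below in 8 (10.8%, against 13.6%). 49 of the 74 had a positive difference in edgeR (50.9% of all genes), and 38 in limma on the deposited FPKM (42.3% of all genes), which changes the values, the scaling and the model together. For the members the same 2 fits gave 90 and 97 positive, while the median log2 difference over all transcripts tested was 0.0045 and 0.098.

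Relative to its gene, no member passed either. The ratio of a member's count to its gene's count was tested with limma on the log2 scale, and 0 of 136 members were past the threshold where 0.145% of 12417 transcript and gene pairs were called. 23 members (16.9%) had an unadjusted p under 0.05, against 10.9% of pairs, and edgeR with the gene count as offset also called 0. The median log2 difference of the ratio was 0.32 over members and 0.14 over all pairs, with 99 members positive (72.8%, against 64.9% of pairs). In 34 members every TAC library had the higher share (25.0%, against 13.8% of pairs) and in 7 every Sham library (5.15%, against 3.15%). TAC 3 had the highest share in 66 members (48.5%), against 28.3% of pairs.

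Member and gene differences were weakly related across the 136 members. Pearson's r was 0.17 and Spearman's rho 0.22, and over the 100 tested members inside a gene they were 0.37 and 0.33. These are descriptions across transcripts that share libraries, and in part reads and genes. The 2 tables are scaled apart, so the differences of a member and its gene are not on one zero: with equal counts in all 6 libraries, Gm13340 had 0.22 as a gene and 0.04 as a transcript, and Rmrp −0.14 and −0.33. The ratio of counts above has no such offset.

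**Figure D4:**
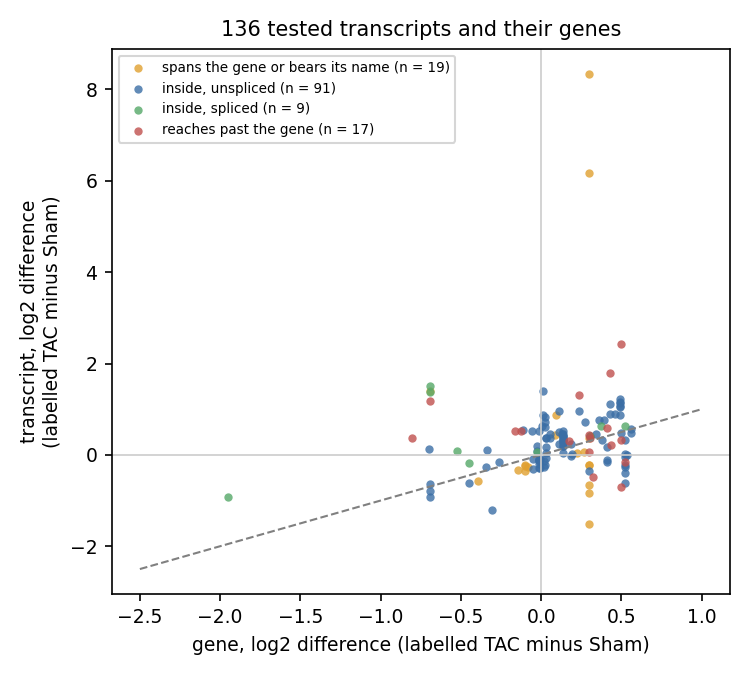
Log2 difference (libraries labelled TAC minus Sham, edgeR) of each of the 136 tested transcripts against that of its gene, coloured by position, with a dashed line of equality; the 2 tables are scaled separately, so a transcript with the counts of its gene lies slightly below that line. Most points lie above 0 on the transcript axis (90 of 136), and the highest pair, at 8.35 and 6.18, are Malat1 transcripts that are high in single libraries.

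The members inside Atp2a2 had the 3 smallest p-values among members in the test between labels. Atp2a2 encodes SERCA2, the pump that returns calcium to the sarcoplasmic reticulum between beats. Its 5 unspliced members lie inside the gene (chr5:122453513-122502225). NONMMUT054362.2 (chr5:122496159-122498008) had 59.1, 56.0 and 84.3 CPM in TAC 1, 2 and 3 and 32.8, 24.2 and 27.9 in Sham 1, 2 and 3. NONMMUT054364.2 had 87.1, 78.0 and 114 CPM against 50.6, 36.8 and 39.9, and ENSMUST00000197944 (Gm43359) 98.9, 80.2 and 133 against 58.5, 38.1 and 43.9. In each of the 5 all TAC libraries lay above all Sham libraries, and TAC 3 was highest. Their log2 differences were 1.04 to 1.23, with edgeR adjusted p of 0.147 to 0.194, so none passed the test. Without TAC 3 they were 0.88 to 1.02.

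The Atp2a2 gene also had its TAC libraries above its Sham libraries, but by less. It had 15291, 15032 and 14396 CPM in TAC and 12795, 8730 and 10330 in Sham (log2 difference 0.49, SE 0.17, edgeR adjusted p = 0.173). Per 100 Atp2a2 counts, NONMMUT054362.2 held 0.415, 0.399 and 0.653 counts in TAC and 0.243, 0.262 and 0.265 in Sham. The ratio differences of the 5 members were 0.72 to 0.89 on the log2 scale, with limma adjusted p of 0.377 to 0.405. The share separates the labels in all 5, and the adjusted test does not.

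Fhl2, Ckmt2 and Ldhb held members of the same kind. Fhl2 encodes a LIM-domain protein of the sarcomere. NONMMUT000764.2, unspliced and inside the gene, had 63.6, 47.5 and 61.7 CPM in TAC and 30.04, 19.5 and 30.3 in Sham (log2 difference 1.11, SE 0.22, edgeR adjusted p = 0.180). NONMMUT000765.2, also inside Fhl2, had 91.8, 68.7 and 61.9 CPM against 44.8, 33.0 and 41.0 (0.90, SE 0.21, adjusted p = 0.209), where the gene had 0.43 (adjusted p = 0.279). NONMMUT018631.2 lies at the 5′ end of Ckmt2, the mitochondrial creatine kinase of striated muscle, with 30.1, 25.4 and 22.01 CPM in TAC and 17.2, 11.5 and 11.2 in Sham (0.96, SE 0.23, adjusted p = 0.215). It held 1.66, 1.40 and 1.98 counts per 100 of Ckmt2 in TAC and 0.933, 0.828 and 0.840 in Sham, a ratio difference of 0.94 (SE 0.17) with the smallest adjusted p of the ratio test among members, 0.291. NONMMUT059353.2 inside Ldhb, the heart form of lactate dehydrogenase, had 15.001, 10.7 and 15.9 CPM against 8.08, 6.45 and 7.74 (0.90, SE 0.21, adjusted p = 0.210). In each of the 4 the TAC-labelled libraries were all higher in CPM, while for both Fhl2 members the shares of the gene count overlapped between labels.

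**Figure D5:**
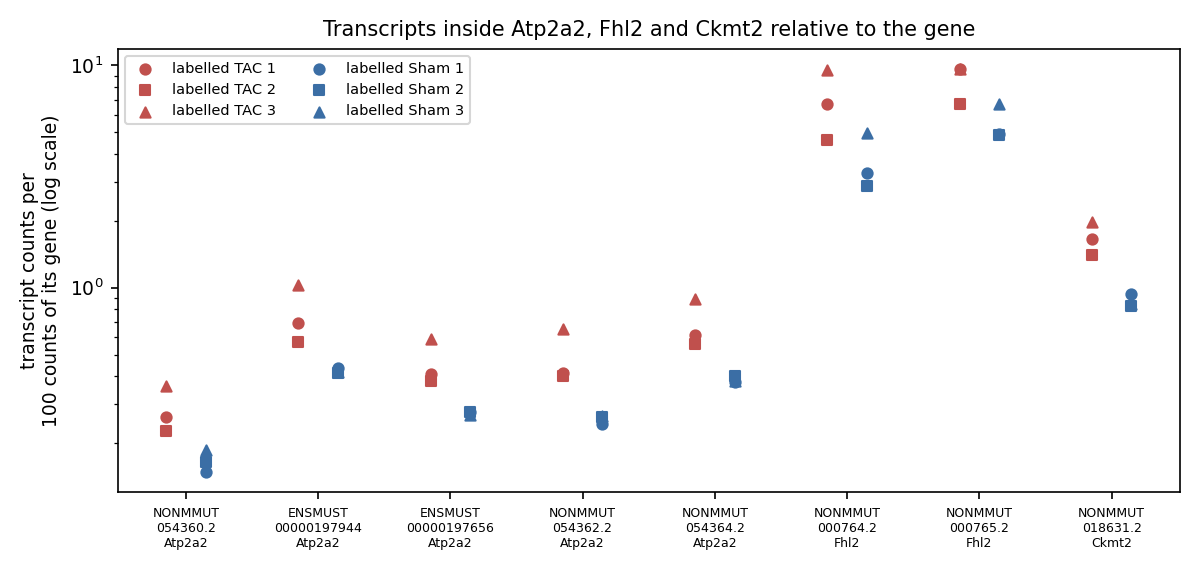
Counts of 8 transcripts per 100 counts of the gene they lie in (log scale), one point per library, red for libraries labelled TAC and blue for Sham, with the shape giving the replicate number. The labels do not overlap for the 5 Atp2a2 members and the Ckmt2 member, and overlap for the 2 Fhl2 members.

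Among the 31 tested members over calcium cycling and membrane transport genes, 27 had a positive difference, with a median of 0.36, and 0 passed the test. Over all transcripts tested, the comparison for this list and those below, 50.4% were positive. Of the 31 members, 13 lie over Slc8a1, 7 over Ryr2 and 5 over Atp2a2, and members over 1 gene are not independent. All 13 Slc8a1 members were positive with all libraries, at 0.05 to 0.52, while 11 were without TAC 1 (lowest −0.33) and 12 without Sham 1 (lowest −0.16). Only NONMMUT030806.2 of the 13 was under an unadjusted p of 0.05. The largest by count, NONMMUT030804.2, had 170, 107 and 155 CPM in TAC and 86.3, 118 and 133 in Sham (0.36, SE 0.24, edgeR adjusted p = 0.589), so the groups overlap. NONMMUT030803.2 had 128, 73.1 and 108 against 60.02, 82.9 and 90.8 (0.41, SE 0.25). The Slc8a1 gene had a difference of 0.14 (SE 0.23), which became −0.17 without TAC 1.

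Ryr2 members differed in direction. The spliced NONMMUT016362.2 had 95.5, 99.6 and 113 CPM in TAC and 66.7, 59.7 and 72.3 in Sham (log2 difference 0.63, SE 0.14, edgeR adjusted p = 0.209). NONMMUT016359.2 had 18.6, 17.2 and 17.2 against 26.9, 19.2 and 23.5 (−0.39, SE 0.17, adjusted p = 0.415), so that the 2 members separate the labels in opposite directions. The member at the 3′ end, NONMMUT016357.2, had 276, 276 and 185 against 214, 190 and 187 (0.32, SE 0.19), and the gene 0.52 (SE 0.16, adjusted p = 0.128). These 2 inner members were named after their values were seen. Of the members over Casq2, the calcium store protein of the sarcoplasmic reticulum, both were positive, and of the 6 over Sptbn1 all were negative, at −0.29 to −0.09.

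Members over genes of energy metabolism were mostly higher in the libraries labelled TAC, with none past the test. In the citric acid cycle, pyruvate and amino acid list 10 of 11 tested members were positive, with a median of 0.43. NONMMUT069192.2 inside Idh3a, a subunit of isocitrate dehydrogenase, had 23.3, 19.2 and 17.8 CPM in TAC and 13.3, 13.8 and 11.6 in Sham (0.64, SE 0.17, edgeR adjusted p = 0.243). NONMMUT008481.2 inside Ogdh, a subunit of the oxoglutarate dehydrogenase complex, had 21.3, 21.6 and 24.9 against 18.2, 14.9 and 18.2 (0.40, SE 0.16), and ENSMUST00000206384 inside Idh2 had 0.48 (SE 0.24) with overlapping groups. Idh3a and Ogdh members thus separate the labels in CPM, but not in the share of the gene count.

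Oxct1, which encodes the enzyme that activates ketone bodies, has 3 members that cross its start from the BC037032 side. NONMMUT022600.2, named after its values were seen, had 1.89, 1.57 and 3.42 CPM in TAC and 0.0505, 0.597 and 0.608 in Sham (log2 difference 2.42, SE 0.67, edgeR adjusted p = 0.249). ENSMUST00000140003 had 34, 54 and 0 counts in TAC and 73, 0 and 55 in Sham. With the third, ENSMUST00000155191, at 0 to 2.005 CPM, the 3 are low, and 2 of them are at 0 in single libraries.

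In the list of nuclear-encoded oxidative phosphorylation genes 9 of 12 tested members were positive, with a median of 0.40. The list also holds the Ckmt2 member described above, a creatine kinase, which has its largest difference, 0.96. Sdha, a subunit of succinate dehydrogenase, has 2 unspliced members. NONMMUT018253.2 had 11.9, 9.83 and 11.9 CPM in TAC and 8.23, 6.68 and 8.01 in Sham (0.56, SE 0.17, edgeR adjusted p = 0.280), and NONMMUT018252.2 12.2, 9.21 and 12.4 against 8.03, 8.73 and 7.35 (0.49, SE 0.18). The gene had 0.56 (SE 0.12, adjusted p = 0.0700), and the ratio differences were 0.17 and 0.09, within their errors. Of the 4 over fatty acid genes, 3 lie inside Cd36, a fatty acid transporter. NONMMUT051326.2, named after its values were seen, had 4.37, 3.37 and 6.61 CPM in TAC and 2.57, 2.16 and 2.65 in Sham (0.96, SE 0.28, edgeR adjusted p = 0.263), without overlap, and NONMMUT051325.2 (0.24, SE 0.26) and NONMMUT051327.2 (0.49, SE 0.31) had overlapping groups. The last is NONMMUT065896.2 (−0.05, SE 0.35) inside Lpl, lipoprotein lipase. The 4 in the glycolysis and creatine kinase list include no member over a creatine kinase gene. Of these 4, NONMMUT069373.2 inside Pkm had −0.14 (SE 0.26) and NONMMUT040423.2 inside Pygb 0.02 (SE 0.18). ENSMUST00000181802 inside Pfkm, a phosphofructokinase of muscle, named after its values were seen, was lower in all TAC libraries, at 0.991, 0.997 and 0.729 CPM against 1.31, 1.72 and 1.11 (−0.61, SE 0.29, edgeR adjusted p = 0.454), beside a gene difference of 0.52. The Ldhb member described above is the fourth.

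Over contractile and Z-disc genes 11 of 15 tested members were positive, with a median of 0.90, and 0 passed the test. Of these 15, 6 lie over Myh7 and 3 over Fhl2. The Myh7 gene had 212, 65.7 and 6050 CPM in TAC and 1816, 6323 and 2072 in Sham, a spread within labels that leaves its difference of −0.69 with an SE of 1.37 (0.12 without Sham 2). NONMMUT020955.2, Mhrt (ENSMUST00000181782) and NONMMUT092967.1 had differences of 1.40 (SE 0.41), 1.18 (SE 0.47) and 1.37 (SE 0.60), and NONMMUT020955.2 alone of these kept the labels apart, at 63.5, 68.7 and 41.7 against 34.9, 11.9 and 19.3 CPM. The other 3 Myh7 members were named after their values were seen. NONMMUT020954.2 also kept the labels apart, at 10.7, 10.3 and 5.65 against 4.85, 1.79 and 2.71 CPM (1.51, SE 0.42, edgeR adjusted p = 0.247). NONMMUT020952.2 (−0.64, SE 1.26) and NONMMUT020956.2 (−0.79, SE 1.35), both unspliced and inside the gene, had the sign of the gene and, like it, their highest TAC value in TAC 3 and their highest Sham value in Sham 2. For Ankrd1, the spliced member MSTRG.18507.1 had 0.631, 1.71 and 1.69 CPM in TAC and 1.01, 2.91 and 3.70 in Sham, overlapping groups where the gene's own did not overlap. The Ldb3 and Ehd4 members at the 3′ end had −0.22 (SE 0.14) and −0.62 (SE 0.27). Their ratios to the gene differed by −0.06 (SE 0.05) and 0.00 (SE 0.06).

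The remaining lists are small. Over matrix and vessel genes 1 of 3 members was positive: NONMMUT007040.2 inside Dcn, a matrix proteoglycan of fibroblasts, had 1.26, 1.04 and 0.592 CPM in TAC and 2.02, 1.72 and 1.77 in Sham (−0.92, SE 0.32, edgeR adjusted p = 0.318), beside a gene difference of −0.69, while NONMMUT064584.2 inside Col4a1 (0.13, SE 0.51) and NONMMUT067827.2 inside Itgb1 (−0.27, SE 0.20) had overlapping groups. The fibroblast markers lower in the same libraries are given above, and their part in the Dcn values was not tested. Over protein folding and turnover genes 4 of 5 were positive, among them ENSMUST00000206512 inside Bag3 (0.54, SE 0.38) and NONMMUT031930.2 inside Hspa9 (0.46, SE 0.25), with NONMMUT021592.2 inside Itm2b at −0.26 (SE 0.19). NONMMUT028278.2, the tested Sod2 member, had 0.21 (SE 0.21) and a share of 6.63 to 7.62 counts per 100 of Sod2 in all 6 libraries. Over non-coding RNA genes 6 of 18 were positive, with a median of −0.23, and over genes in no list 16 of 32, with a median of 0.01.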

How the data were processed

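Total RNA of 6 left ventricle libraries was analysed from a gene table and a lncRNA table. Each gives, per the file headers, the counts and the FPKM that the authors deposited for every library. HISAT2 2.0.4, StringTie 1.3.0 and GRCm38 (mm10) are listed in the submitters' processing notes. The counting program, its strand setting and what each tool did: not given in the sources used here. Every value column was tied to a library by the name in its description label.

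Counts deposited by the authors were tested with edgeR 4.0.16 (quasi-likelihood, TMM, filterByExpr with a minimum count of 10, no block) on each whole table, in R 4.3.3, with Benjamini-Hochberg adjustment and a threshold of 0.05. The lncRNA library size was the total implied by the deposited FPKM, 1.016 to 1.024 times the gene total. The log2 ratio of transcript to gene count, each plus 0.5, was tested with limma 3.58.1 (trend) over all pairs whose gene had a mean count of at least 10. An SE is the size of a log2 difference over the root of its F statistic. CPM are TMM-scaled. FPKM levels use the deposited FPKM per length. The tests were checked on simulated data. There the counts of a transcript and its gene were drawn independently, so shared reads were not covered.

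Named were the 10 members of highest summed count, at most 3 for each gene list (2 per gene), and at most 3 over Myh6, Myh7, Nppa, Acta1, Ttn, Atp2a2, Malat1 and Neat1. No member passed a test, which would have named it too. Others are named where values of single genes are described, and were chosen after their values were seen. Members and lists were chosen with earlier results of these data known. Alternatives were DESeq2 1.42.0, median-of-ratios scaling, no filter, limma on log2(FPKM + 0.1) or + 1, lncRNA table totals, other pseudocounts, a replicate block, other membership rules and each library left out. A position class compares a transcript's interval with the gene locus, and "unspliced" means an interval no longer than the transcript. Promoter sequences and gene strands are from RefSeq (GRCm38.p6).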

Additional observations from a re-analysis of the deposited data

How the results depend on the processing

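The result that no member passed the lncRNA test held with median-of-ratios scaling, lncRNA table totals, no filter, limma and the replicate block. It did not with DESeq2 (16 members). With a library left out it ranged from 0 to 2, where the 2, without TAC 1, are the Ttn and Xirp2 transcripts, which enter the test only through the 2 libraries where they are high, so this count is no check of the result. Over all transcripts the 17 calls became 233 with DESeq2 (136 higher in TAC, 97 in Sham, against 8 and 9), 26 and 27 with limma, and 18 to 31 with a library left out. Over all genes the 217 calls (49 higher in TAC, 168 in Sham) became 1164 with DESeq2 (456 and 708), 432 with no filter, and 0 to 397 with a library left out. Of the 74 members' genes 11 were called with DESeq2, 7 of them higher in TAC, against 1164 of the 22073 genes it was run on. With a library left out 0 to 3 of the 74 were called, against the 0 to 397 of all genes given above. The ratio test called 8 to 24 pairs with a library left out, against 18. Taking the 100 most expressed genes gave 84 members. The cause of these shifts was not tested.

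The labels number the libraries 1 to 3 in each group, and same-numbered libraries did not deviate together (correlations of −0.14 to −0.09 over genes and −0.073 to −0.0041 over lncRNA transcripts). With the number as a replicate block there were 11 transcript calls, 41 gene calls (1 and 40 by direction), 0 among the members' genes and 0 in the ratio test.

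With a library left out, the sign turned at least once for 34 of 140 members and 25 of their 74 genes. Among members with a printed difference these included ENSMUST00000117219 (−0.044 to 0.16), NONMMUT033604.2 (−0.65 to 6.90) and NONMMUT065896.2 (−0.55 to 0.20). They also included NONMMUT069373.2 (−0.32 to 0.091), NONMMUT040423.2 (−0.082 to 0.13) and NONMMUT064584.2 (−0.28 to 0.43), besides those of Slc8a1 given above. The Myh7 members NONMMUT020952.2 (−3.64 to 0.54) and NONMMUT020956.2 (−4.04 to 0.46) turned as well. Among genes with a printed difference they were Myh7 (−4.61 to 0.12), Slc8a1 (−0.17 to 0.33), Actc1 (−0.13 to 0.55) and Mapkapk2 (−0.07 to 0.08). A split by strand was not run, because the lncRNA table gives none. There were 3 libraries per label and at most 2397057 lncRNA counts in one. The part of library number, depth and spread between libraries in the members' adjusted p was not tested.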

Other observations

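A few further members were picked out after their values were seen, and none passed edgeR's test. Mapkapk2, which encodes a stress-activated kinase, has 2 unspliced members. ENSMUST00000191688 (Gm37084) had 19.5, 17.2 and 49.1 CPM in the libraries TAC 1, 2 and 3 and 13.7, 16.6 and 16.3 in Sham 1, 2 and 3 (log2 difference 0.88, SE 0.41, edgeR adjusted p = 0.439), so TAC 3 stands above the rest. The smaller NONMMUT002558.2 had 0.766, 0.665 and 1.59 CPM against 0.303, 0.485 and 0.332 (1.40, SE 0.47, adjusted p = 0.308), where the gene's difference was 0.01. NONMMUT107727.1, a spliced transcript that reaches past Actc1, the cardiac actin gene, had 7.12, 4.04 and 7.97 CPM against 2.47, 2.98 and 2.27 (1.303, SE 0.29, adjusted p = 0.199), beside a gene difference of 0.24. NONMMUT033846.2 inside Ahnak, a large scaffold protein, went the other way, at 0.405, 0.427 and 0.273 CPM against 0.808, 0.784 and 0.995 (−1.21, SE 0.34, adjusted p = 0.259).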
